A study of Mus musculus with 48 samples.

Results

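The change in transcript levels at birth was described in the mouse hypothalamus and preoptic area by comparing the 4 arrays labelled P0, the day of birth, with the 8 arrays labelled E17 or E18. These 12 arrays were chosen by their age label alone, out of 48 arrays that span 12 ages. Each age had 1 array for a female and 1 for a male of C57Bl/6, an inbred strain, and of CD-1, an outbred stock. No array carried a treatment or a mutation, all animals had ordinary chow and a light cycle of equal light and dark, and the labels give neither the number of animals behind an array nor the hour of birth. A further 8 arrays of E15 and E16 were used to draw the late fetal trend, so that a change which set in at birth could be separated from one already under way. Where values of all P0 arrays are given below, they stand in the order C57Bl/6 female, C57Bl/6 male, CD-1 female, CD-1 male.

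Birth takes a mammal from placental supply of oxygen, glucose and hormones to breathing, suckling and its own heat production. The hypothalamus and preoptic area govern body temperature, feeding, water balance, the stress axis and reproduction, through neurons that release peptides. In the rodent forebrain, most hypothalamic neurons are born before the last days of gestation, astrocytes mature around birth, and myelin forms later.

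RNA from each tissue sample was hybridised to an Affymetrix MOE430 array, and the deposited values are signal intensities on a linear scale, scaled so that every array had the same trimmed mean, 150.0. Precision is limited by the number of arrays, since 1 array stands for each age, strain and sex, and p-values measure the scatter of single arrays. Changes are given as log2(signal + 16) at P0 minus that at E17 and E18, with strain in the model, and their folds understate the change of dim genes. A gene was called when its limma p, adjusted over all 12152 genes tested, was under 0.05. Signals of different genes were not set against each other, because probes differ in response.

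The labelled tissue carried signal for its defining peptides: at E17 and E18 the median signal was 1023 for Avp (vasopressin), 501 for Oxt (oxytocin), 580 for Pmch (melanin-concentrating hormone) and 143 for Hcrt (orexin). The P0 array of the CD-1 male stood apart, with correlations across genes of 0.936 to 0.951 with the other P0 arrays, against 0.964 to 0.983 among those 3. Xist and Eif2s3y matched the labelled sex in these 12 arrays. In the E16 array labelled C57Bl/6 male, which enters only the trend, Xist was at 1846 and Eif2s3y at 60.4, against Xist at 74.1 to 127 in the 6 males of E17, E18 and P0. The ratio of 3′ to 5′ signal of beta-actin, a measure of RNA integrity, was 1.10 to 1.35 at P0 and 1.07 to 1.41 at E17 and E18. At E17 and E18 it was 1.28 to 1.41 in C57Bl/6 and 1.07 to 1.12 in CD-1. The Gapdh ratio in C57Bl/6 was 0.845 to 0.939 at E17 and E18 and 0.755 to 0.818 at P0, without overlap. In CD-1 it was 0.741 to 0.812 and 0.793 to 0.840. In CD-1 the median signal of an array was 52.3 to 56.0 at E17 and E18 and 59.4 to 62.3 at P0, and in C57Bl/6 it was 62.4 to 64.4 and 59.1 to 60.1. The part of these differences in the results was not tested.

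Promoter sequence is shown for 3 genes on which the results turn: Fos, whose rise differed most clearly between the strains, Agt, which had the largest rise, and Ankrd37, which had the clearest abrupt fall. Each is the 250 bases before the RefSeq start on GRCm38.p6, read 5′ to 3′ on the gene's strand, with matches to the searched motifs in capitals. The Fos promoter lies at chr12:85473640-85473889 on the plus strand, the Agt promoter at chr8:124569707-124569956 on the minus strand and the Ankrd37 promoter at chr8:45999851-46000100 on the minus strand.
Fos: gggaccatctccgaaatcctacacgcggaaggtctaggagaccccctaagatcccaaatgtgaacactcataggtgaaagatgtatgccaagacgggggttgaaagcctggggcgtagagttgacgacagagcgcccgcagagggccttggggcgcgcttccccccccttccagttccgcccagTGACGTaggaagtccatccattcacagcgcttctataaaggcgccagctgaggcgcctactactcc
Agt: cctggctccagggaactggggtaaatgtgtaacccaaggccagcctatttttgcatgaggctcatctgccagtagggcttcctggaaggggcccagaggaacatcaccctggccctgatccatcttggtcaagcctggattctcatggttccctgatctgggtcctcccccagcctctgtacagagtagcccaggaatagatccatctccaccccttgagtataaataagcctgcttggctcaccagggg
Ankrd37: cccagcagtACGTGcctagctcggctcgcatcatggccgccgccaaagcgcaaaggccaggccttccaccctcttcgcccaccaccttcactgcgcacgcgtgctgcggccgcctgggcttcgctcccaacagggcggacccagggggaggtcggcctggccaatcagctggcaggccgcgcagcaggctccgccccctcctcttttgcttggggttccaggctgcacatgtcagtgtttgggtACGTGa

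The motifs were TGACGT, the core of the cyclic AMP response element, ACGTG, the core of the hypoxia response element, CACGTG, the E-box, and ACANNNTGT, which holds the spacing of glucocorticoid receptor recognition sites. Both strands were searched, CACGTG contains ACGTG, and TGACGT can overlap ACGTG. The Fos promoter held TGACGT once, which 41.2% of 17 promoters of immediate early genes and 11.4% of 9830 promoters of tested genes also held. The Ankrd37 promoter held ACGTG at 2 places, and this motif was in 72.7% of 22 promoters of hypoxia responsive genes, against 25.2% of all. None of the 4 motifs was in the Agt window. ACANNNTGT was in 4.35% and CACGTG in 9.88% of all promoters. These matches describe the letters in each window and mark no binding.

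Between the last 2 fetal days and P0, 1210 genes were called, which is 9.96% of those tested. Of these, 624 were higher at P0 (5.13% of genes tested) and 586 lower (4.82%). Most changes were small: the median size among called genes was 0.42 on the log2 scale, and 29 genes (0.239%) were called with a change of at least 2-fold. The median over all genes tested was 0.00. Without the P0 array of the CD-1 male 663 genes were called, without that of the CD-1 female 717, and without the E17 array of the CD-1 male 757. Against E18 alone 70 genes were called, and in a fit of all 48 arrays 38. All 4 P0 arrays lay above, or all below, every E17 and E18 array for 532 genes (4.38%), 282 above (2.32%) and 250 below (2.06%). In C57Bl/6 alone 251 were called and in CD-1 alone 1008.

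The late fetal line asked whether a change at birth went on from E15 to E18. It was fitted through the arrays of those ages with P0 placed at day 19, and the gap between P0 and the extended line is called the departure. The slope over E15 to E18 was called for 2619 genes (21.6%), 1524 rising (12.5%) and 1095 falling (9.01%). Among the genes called at birth, 548 had a slope in the same direction and no called departure, and are termed continued. For the median continued gene the line gave 64.1% of the birth change, and for 400 of them at least 50%. A departure was called for 37 genes (0.304%), of which 31 were also called at birth in the same direction and are termed abrupt: 14 rose and 17 fell. A further 631 genes changed at birth with neither a slope in that direction nor a called departure, and are left unresolved. Their departure had the sign of the birth change in all 631. For the median unresolved gene the line gave 11.1% of the change, and for 5 of them at least 50%. The class leaves out genes with a called slope in that direction, so a small share is partly built in. The counts of 31 and 548 therefore do not give the balance of abrupt and continued change.

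**Figure D1:**
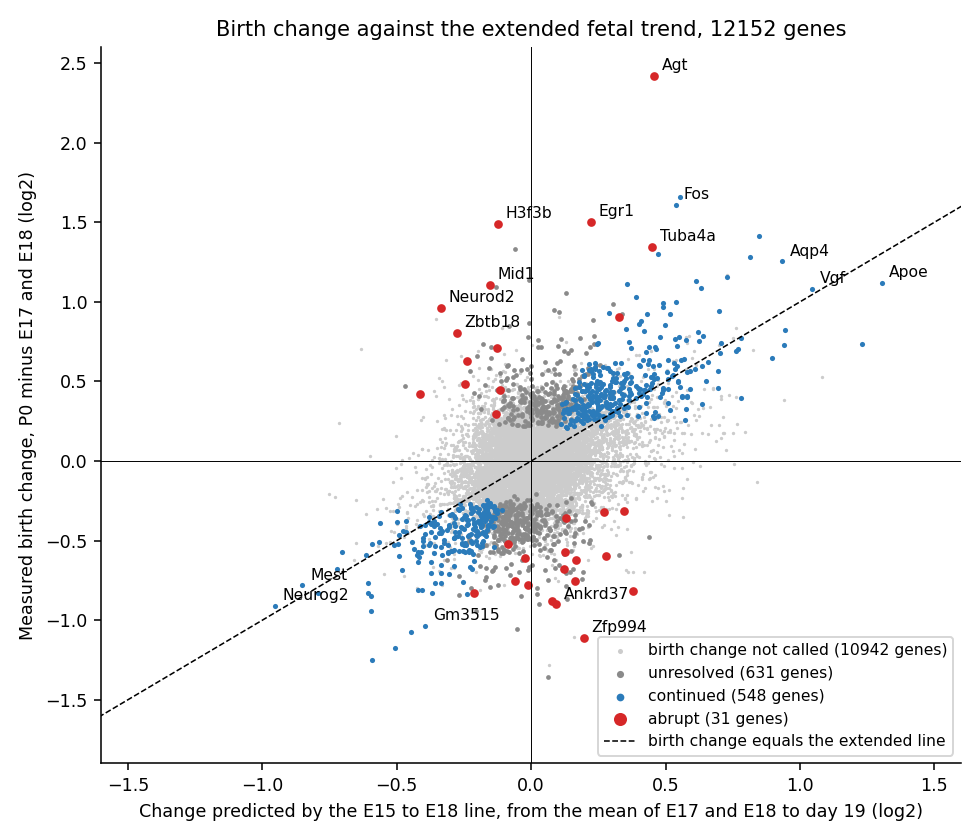
Each point is 1 of 12152 genes, with the change from the mean of E17 and E18 to day 19 predicted by the E15 to E18 line on the horizontal axis and the measured birth change on the vertical axis, both in log2. The 548 continued genes (blue) had no called departure from the dashed line of equality. For the median continued gene the prediction was 64.1% of the birth change, so it lies on the side of a larger measured change. The 31 abrupt genes (red) had a called departure, with Agt at a measured 2.42 against a predicted 0.46 and Ankrd37 at -0.90 against 0.09.

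The labels give no day of birth, and the departure depends on the day at which P0 is placed. With P0 at day 18 there were 401 departures, and with P0 at day 20 there were 71. Of the 31 abrupt genes 22 were still called with day 20, and Agt, Tuba4a, Sv2b, Vegfa, Ina, Nupl1, Pnrc1, Prrg1 and Ciao1 were not. With the line drawn over E16 to E18, 0 departures were called by limma, with 1188 genes (9.78%) at an unadjusted p under 0.05, while all 31 abrupt genes kept their sign. When each of the 20 arrays was left out in turn, between 19 and 50 departures were called. Of the abrupt genes, Egr1, H3f3b, Tuba4a and Zbtb18 above the line and Abhd14a, Ankrd37, Klhl28 and Zfp994 below it stayed called in every one of these fits. So did Agt, which entered the test through its P0 arrays alone. Only 12 of the 31 were called without the P0 array of the CD-1 male. In C57Bl/6 alone 2 of the 31 departures were called and in CD-1 alone 9, while all 31 kept their sign.

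Among the abrupt rises, Agt, which encodes angiotensinogen and is made by astrocytes in the brain, changed most. Its signal was 130, 107, 200 and 161 in the P0 arrays, and its lowest, median and highest values at E17 and E18 were 3.81, 9.68 and 39.8. Every P0 array thus lay above every E17 and E18 array. Agt, like Itih3 described with the astrocyte genes, exceeded the array median in the P0 arrays alone and entered the test through them, so its call is no independent support. The rise was 2.42 ± 0.28 on the log2 scale (SE, n = 4 and 8; 5.35-fold; limma adjusted p = 0.000497), and P0 lay 1.95 above the extended line (adjusted p = 0.0156). That departure was not called with pseudocount 1, with P0 at day 20, with the line over E16 to E18 or in C57Bl/6 alone, with adjusted p up to 0.44. In means of 4 arrays, Agt went from 6.89 ± 2.56 (SD) at E17 to 26.3 ± 15.1 at E18 and 149.6 ± 40.2 at P0.

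Egr1, an immediate early gene whose transcription follows neuronal activity and growth factor signals, was abrupt in the same sense. The P0 arrays had 594, 603, 291 and 220, against 106, 125 and 152 as lowest, median and highest at E17 and E18. Both strains were above the fetal range, and the C57Bl/6 arrays were the higher ones. The change was 2.83-fold (SE 0.18 on the log2 scale, adjusted p = 0.000497) and the departure 1.30 (adjusted p = 0.0156), with no called slope (0.15 per day, adjusted p = 0.0965). That departure was not called in CD-1 alone or with the line over E16 to E18.

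Tuba4a encodes an alpha-tubulin of mature neurons. Its signal was 579, 647, 803 and 922 at P0, and 196, 287 and 374 as lowest, median and highest at E17 and E18. The arrays did not overlap, and both CD-1 arrays were above both C57Bl/6 arrays at P0. It rose by 1.35 ± 0.16 (2.54-fold, adjusted p = 0.000497), on top of a fetal slope of 0.30 per day, with a departure of 0.92 (adjusted p = 0.0201). A second probe set of Tuba4a also rose (0.66, adjusted p = 0.00765) and another did not pass the test (-0.44, adjusted p = 0.379).

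Neurod2, a basic helix-loop-helix factor of maturing forebrain excitatory neurons, reversed its course at birth. It had 162, 218, 251 and 388 at P0, and 89.3, 116 and 146 as lowest, median and highest at E17 and E18. Its slope over E15 to E18 was -0.22 per day (adjusted p = 0.0265), P0 was higher than E17 and E18 by 0.96 ± 0.14 (adjusted p = 0.00148), and the departure was 1.35 (adjusted p = 0.0204). That slope rested on E15, where the mean was 225 ± 128 (SD, n = 4), against 116 ± 34.0 at E16. Over E16 to E18 it was 0.0027 per day (not called).

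Zbtb18, a repressor needed for forebrain neuron differentiation, and Nell2, a secreted protein of neurons, also rose, by less than their departure from the line. Zbtb18 had 861, 908, 901 and 1294 at P0 and 436 to 852 at E17 and E18, a change of 0.80 ± 0.12 (adjusted p = 0.00183) with a departure of 1.09. Nell2 had 411, 449, 362 and 505 at P0 and 251 to 339 at E17 and E18, a change of 0.63 ± 0.10 (adjusted p = 0.00201) with a departure of 0.87. In both, the lowest P0 array was above the highest fetal array. A second Nell2 probe set did not pass the test (0.29, adjusted p = 0.287).

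Mid1, a microtubule-associated ubiquitin ligase, rose in both strains from different levels. In C57Bl/6 it had 166 and 125 at P0 and in CD-1 599 and 303, and over both strains its fetal range was 53.5 to 206, so the groups overlapped across strains but not within them. The change was 1.11 ± 0.17 (2.15-fold, adjusted p = 0.00179). Sv2b, a synaptic vesicle glycoprotein, had 414, 426, 486 and 594 at P0 and 200 to 296 at E17 and E18, a rise of 0.90 ± 0.10 (adjusted p = 0.000497) with a departure of 0.58. H3f3b encodes the replacement histone H3.3. It had 348, 330, 230 and 147 at P0 and 47.4 to 145 at E17 and E18, so the CD-1 male was close to the fetal maximum, and it rose by 1.49 ± 0.26 (adjusted p = 0.0043). Neither the rise of H3f3b nor its departure was called in CD-1 alone.

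The remaining abrupt rises were Haghl, Ago1, Trmt6, 2610005L07Rik and Eif5, with departures of 0.44 (Eif5) to 0.82 (Haghl). For 2610005L07Rik another probe set went the other way and was called (-0.50, adjusted p = 0.0256), so its direction is uncertain. No further probe set of Haghl (3), Trmt6 (1) or Eif5 (4) was called, and that of Trmt6 was at -0.39 (adjusted p = 0.0619).

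Of the abrupt falls, Ankrd37, a target of hypoxia inducible factor that carries ankyrin repeats, was the clearest. It had 74.2, 83.6, 61.2 and 45.2 at P0, and 126, 131 and 163 as lowest, median and highest at E17 and E18. The 8 fetal arrays lay close together and all 4 P0 arrays were well below them. The change was -0.90 ± 0.12 (1.87-fold lower, adjusted p = 0.0011), and the departure was -1.01 (adjusted p = 0.00464) with no called slope (0.06 per day).

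Vegfa, the vascular growth factor induced by low oxygen, also fell below its line. Its signal was 206, 192, 129 and 117 at P0, and 209, 250.3 and 295 as lowest, median and highest at E17 and E18. The C57Bl/6 arrays at P0 were just below the lowest fetal array, a CD-1 array, and the CD-1 arrays were far below it. The change was -0.61 ± 0.09 (1.53-fold lower, adjusted p = 0.00179) and the departure -0.60 (adjusted p = 0.0204). The departure was lost without the P0 array of the CD-1 male and without the E18 array of either CD-1 sex, with adjusted p up to 0.0778, and a second probe set did not pass the test (-0.35, adjusted p = 0.332).

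The zinc finger genes Zfp994 and Zfp617 were lowest in the CD-1 arrays of P0. Zfp994 had 33.9, 25.2, 6.47 and 7.26 at P0 against 33.6 to 75.2 at E17 and E18, a change of -1.11 ± 0.21 (adjusted p = 0.00559). Zfp617 had 359, 295, 145 and 99.5 against 229 to 518, a change of -0.88 ± 0.15 (adjusted p = 0.0038). In both the groups overlapped over strains, and a second probe set of Zfp617 did not pass the test (-0.11, adjusted p = 0.522). Tank, an adaptor in NF-kappa-B and interferon signalling, had 63.4, 63.0, 55.9 and 44.4 against 94.6 to 132, with no overlap and a change of -0.75 ± 0.11 (adjusted p = 0.00151).

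Ina and Nrcam, genes of the young axon, were also abrupt. Ina, the neuronal intermediate filament alpha-internexin, had 2844, 2512, 2407 and 2158 at P0 against 3199 to 3923 at E17 and E18, a change of -0.52 ± 0.07 (adjusted p = 0.00151). Of 2 further Ina probe sets, 1 fell and departed as well (-0.71, adjusted p = 0.000889) and 1 did not pass the test (-0.26, adjusted p = 0.165). Nrcam, an axonal adhesion molecule, had 644, 616, 515 and 503 against 648 to 813, a change of -0.36 ± 0.07 (adjusted p = 0.00722), and 3 further probe sets did not pass the test. The other 10 abrupt falls were Ciao1, Nupl1, Slc35a5, Prrg1, Nufip2, Klhl28, Klhl1, Pnrc1, Abhd14a and Mindy2, with birth changes of -0.31 (Mindy2) to -0.83 (Pnrc1). A second probe set of Nufip2 rose (0.35, adjusted p = 0.048), so its direction is uncertain. No further probe set of Slc35a5, Mindy2, Prrg1, Klhl1 or Abhd14a (-0.16, adjusted p = 0.335) was called, while those of Nupl1 were. For Klhl28 a further probe set was called (-0.34, adjusted p = 0.025) and another was not (-0.41, adjusted p = 0.079). Klhl1 fell in 3 of the 4 series of strain and sex.

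A departure was called without a called birth change in 6 genes. In 5 of them, which rose before birth, P0 lay below the line: Gabrg1, Gatm, Gyg, Ppp1r3c and Zmat1. Gabrg1, a GABA-A receptor subunit, had a slope of 0.56 per day over E15 to E18 (adjusted p = 2.35e-07) and then 482, 491, 493 and 258 at P0 against 389 to 585 at E17 and E18. Its departure was -0.97 (adjusted p = 0.027). Gyg (glycogenin) and Ppp1r3c (a glycogen-targeting phosphatase subunit) act in glycogen synthesis, with departures of -0.55 and -0.68. Nek6, a mitotic kinase, was the 1 gene above its line, with a falling slope (-0.17 per day) and an uncalled birth change of 0.39.

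**Figure D2:**
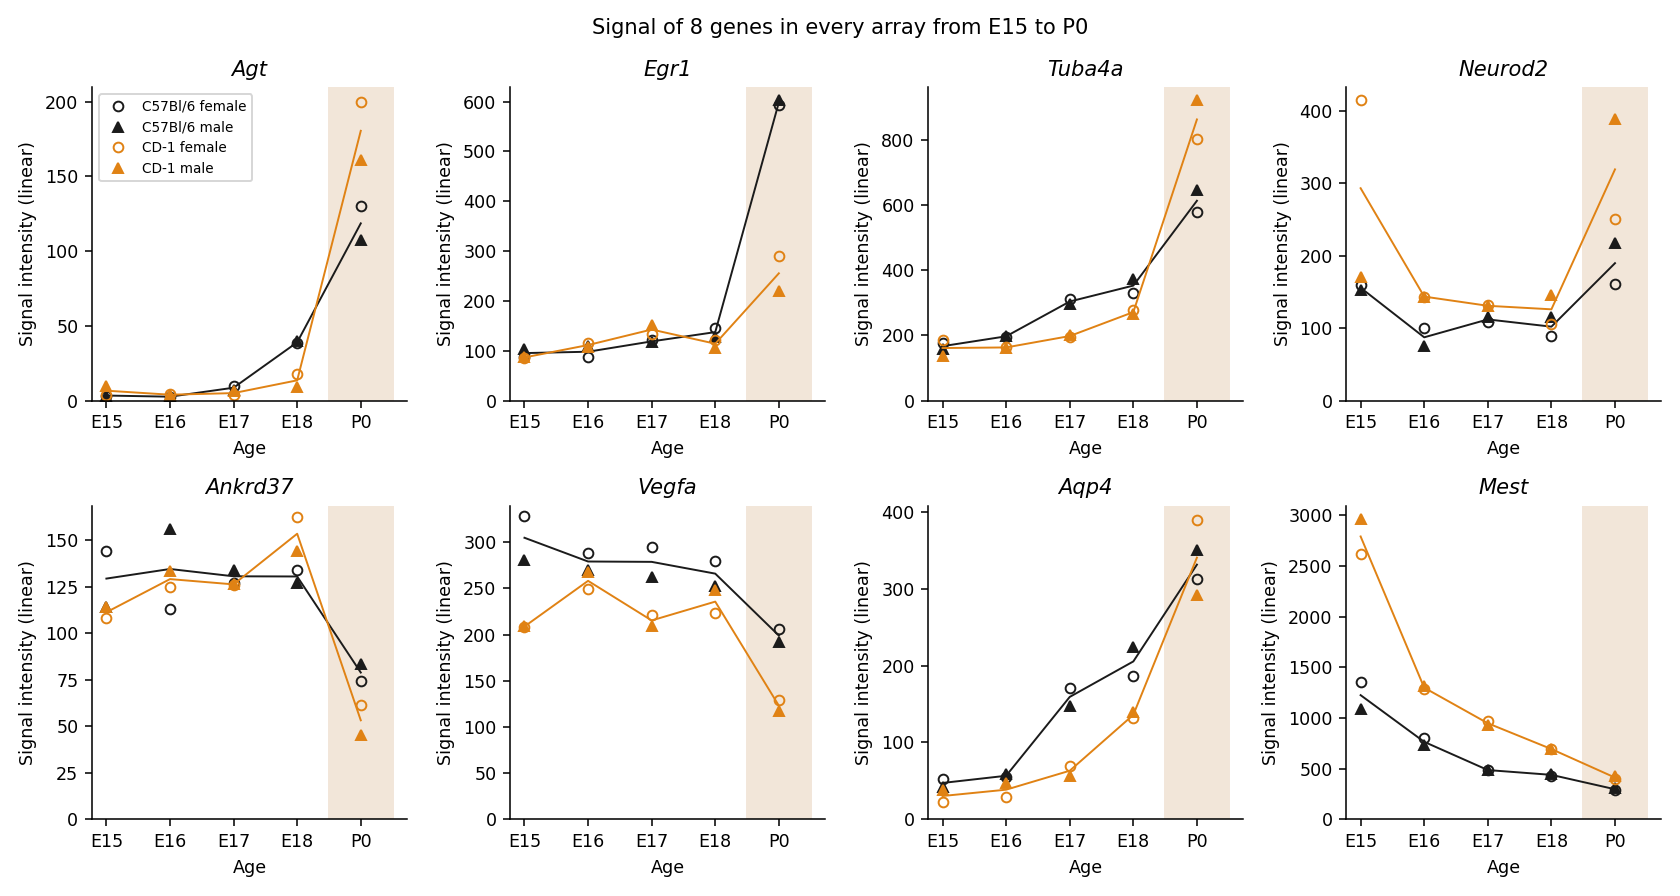
Signal on a linear scale in every array from E15 to P0 for 8 genes, with circles for females, triangles for males, black for C57Bl/6, orange for CD-1, and lines joining the mean of each strain. P0 is shaded: Agt, Egr1 and Tuba4a rise and Ankrd37 and Vegfa fall there after a flatter fetal course, whereas Aqp4 and Mest go on along theirs.

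The continued changes were larger in number and are best seen in Vgf, Apoe, Aqp4 and Mest. Vgf, a secretory protein of peptide neurons, had 541, 489, 623 and 331 at P0 and 148 to 325 at E17 and E18. All P0 arrays were higher, yet its slope of 0.70 per day predicted a rise of 1.05 against the measured 1.08 ± 0.19, and the departure was -0.04. Apoe, the main lipid carrier of astrocytes, had 2672, 2761, 2497 and 1769 at P0 and 412 to 1887 at E17 and E18, a rise of 1.12 ± 0.21 (adjusted p = 0.00564) with a departure of -0.17. Mest, an imprinted growth gene, had 288, 305, 393 and 430.0 at P0 and 426 to 965 at E17 and E18, overlapping by 1 array. Its fall of -0.78 ± 0.10 (adjusted p = 0.00101) compared with a predicted -0.85. None of these departures passed the test with P0 at day 19. With P0 at day 18 the departures of Apoe and Mest were called, in the direction of their birth change.

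Other large rises carried a positive but uncalled departure. Thy1, a surface glycoprotein of mature neurons, had 281, 293, 391 and 499 at P0 against 68.0 to 172, a rise of 1.42 ± 0.22 (adjusted p = 0.00201) with a departure of 0.60 (adjusted p = 0.241). Omg, the oligodendrocyte-myelin glycoprotein, which neurons also make, had 83.8, 128, 117 and 203 against 10.2 to 73.7, a rise of 1.66 ± 0.33 (adjusted p = 0.00731) with a departure of 1.12 (adjusted p = 0.187). The median standard error of a departure was 0.15.

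Large continued falls included regulators of neuron birth. Neurog2, a proneural factor, had 33.4, 22.1, 22.9 and 43.5 at P0 and 37.9 to 94.9 at E17 and E18, with a change of -0.91 ± 0.19 (adjusted p = 0.00985) and a departure of -0.02. Insm1, a factor of newborn neuroendocrine cells, had 179, 137, 108 and 24.7 against 189 to 294, with the CD-1 male lowest, and a change of -1.18 ± 0.27 (adjusted p = 0.0141). Gm3515, a predicted gene, had 173, 159, 113 and 108 against 210.3 to 359.9, a change of -1.04 ± 0.09 and the smallest adjusted p of all genes (9.87e-05).

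Astrocyte genes formed the list with the most rises, 19 of 34 tested members, and 0 fell, beside 5.13% and 4.82% of all genes. Without Agt and Itih3, which entered the test through P0 alone, 17 of 32 rose with a median change of 0.53, against 0.00 over all genes. Of the 19, 14 were continued. Aqp4, the water channel of astrocyte endfeet, had 312, 350.4, 389 and 291 at P0 and 56.4 to 224 at E17 and E18, a rise of 1.25 ± 0.21 (adjusted p = 0.00351). Itih3, a hyaluronan-binding protein, had 84.4, 89.1, 127 and 104 against 12.9 to 45.0, a rise of 1.28 ± 0.19 (adjusted p = 0.00169). Aldh1l1 (folate metabolism), Atp1b2 (a sodium pump subunit) and Gja1 (connexin 43) rose by 0.73, 0.85 and 0.69, although of 5 further probe sets of Gja1 1 was called. Agt was the 1 member that was abrupt. The summed signal of the 34 genes was 30444 to 31038 in the P0 arrays and 16708 to 26482 at E17 and E18. In bulk tissue, more cells of a type and more RNA per cell cannot be told apart, here and in every list below.

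Over all lists 163 of 723 tested members were called, beside 9.96% of all genes, and 19 against E18 alone. For each list here and below, the shares over all genes were 5.13% higher and 4.82% lower at P0. The median of the astrocyte list was 0.87 in CD-1 and 0.30 in C57Bl/6. At E17 and E18 the CD-1 arrays had lower summed signal (16708 to 23952) than most C57Bl/6 arrays (22026 to 26482), and at P0 the strains were alike (30584 to 31038 and 30444 to 30726). Without the P0 array of the CD-1 male 14 members were called, and against E18 alone 6. Those 6 include Agt and Itih3, which entered the test through P0 alone. The strain medians and sums of the astrocyte list include these 2 genes as well.

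Oligodendrocyte lineage genes moved both ways. Pdgfra, the growth factor receptor of precursors that mesenchyme also carries, rose by 0.93 ± 0.19 (adjusted p = 0.00911), and Bcas1 by 0.46. A second probe set of Pdgfra did not pass the test (0.18, limma adjusted p = 0.419). Olig2 and Nkx2-2, transcription factors of the lineage and of ventral progenitors, fell by 0.41 and 0.50 on the log2 scale. Among 11 tested myelin genes 0 were called by limma. For Mbp, myelin basic protein, the brightest probe set had 255, 228, 268 and 245 at P0 against 156 to 261 (adjusted p = 0.423), while 1 of 4 dimmer ones rose (0.97, adjusted p = 0.00314). The result for Mbp therefore depends on the probe set.

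Microglia genes rose in 7 of 18 cases and fell in 0, beside 5.13% and 4.82% of all genes, with a median of 0.36. C1qa, a complement subunit, had 218, 229, 163 and 195 at P0 and 74.1 to 144 at E17 and E18, with no overlap and a rise of 0.76 ± 0.15 (adjusted p = 0.00676). Cx3cr1, the fractalkine receptor, had 107, 113, 156 and 195 against 75.4 to 114, a rise of 0.57 ± 0.13 (adjusted p = 0.0122), and Csf1r, P2ry12, Ctss, Laptm5 and Fcer1g rose as well. No further probe set of Laptm5 was called (-0.24 to 0.16). For Csf1r a further probe set was called (0.34) and another was not (0.23). The slope of the microglia genes over E15 to E18 was called in 3 of 18, and 5 of the 7 rises were unresolved. The count was 4 of 18 without the P0 array of the CD-1 male. Among interferon and complement genes 4 of 13 rose, all of antigen presentation or the Ifitm family: B2m (0.52), H2-K1, H2-D1 and Ifitm2. The count was 2 without the P0 array of the CD-1 male, and no further probe set of B2m, H2-K1 or H2-D1 was called.

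Genes of the synaptic vesicle rose in 10 of 20 cases with 0 falls, beside 5.13% and 4.82% of all genes, and a median of 0.36. Vamp1, a vesicle SNARE, had 89.5, 102, 132 and 88.7 at P0 and 20.9 to 68.4 at E17 and E18, a rise of 1.11 ± 0.17 (adjusted p = 0.00191). Dnm1, the neuronal dynamin, had 1532, 1823, 2076 and 2343 against 1058 to 1527, a rise of 0.57 ± 0.07 (adjusted p = 0.000954). Syp, Syt1, Syn2, Vamp2, Cplx2, Sncb and Pclo rose by 0.30 to 0.53. No further probe set of Syp, Syt1, Vamp2 or Pclo was called, while a further probe set of Syn2 (0.30) and of Cplx2 (0.40) was. Without the P0 array of the CD-1 male 8 of the 20 were called, and against E18 alone 3.

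In the postsynapse, 9 of 29 glutamate receptor and scaffold genes rose and 0 fell, led by Nrgn (0.88), a calmodulin-binding protein of spines, and Grin3a (0.60). No further probe set of Grin3a was called (0.41 and 0.31). In the fit without the P0 array of the CD-1 male 4 of the 29 were called. Grin2b, the fetal NMDA receptor subunit, did not pass the test (0.05 ± 0.12, adjusted p = 0.818). Among GABA and glycine genes 7 of 20 rose and 0 fell. Slc6a11, a GABA transporter of astrocytes, had 314, 397, 821 and 612 at P0 against 147 to 326, a rise of 1.15 ± 0.22 (adjusted p = 0.00676).

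Slc12a5, which encodes the chloride exporter KCC2 that lets GABA become inhibitory, had 3065, 3055, 3692 and 4087 at P0 and 2177, 2413 and 2802 as lowest, median and highest at E17 and E18. The groups did not overlap, and the rise of 0.49 ± 0.09 (adjusted p = 0.00481) was continued, with a slope of 0.17 per day. A second probe set of Slc12a5 did not pass the test (0.33, adjusted p = 0.328). Slc12a2, the chloride importer NKCC1, did not pass the test (0.16 ± 0.09, adjusted p = 0.28). Of 29 voltage-gated channel genes 5 rose and 0 fell, beside 5.13% and 4.82% of all genes. Kcnq3 (0.61) and Scn2a (0.52) were among the 5, and 3 rose without the P0 array of the CD-1 male.

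Neuropeptide and transmitter genes rose in 9 of 30 cases and fell in 1, beside 5.13% and 4.82% of all genes. The rises after Vgf were Sst (somatostatin, 0.75), Penk (enkephalin, 0.64), Npy (neuropeptide Y, 0.55), Pam (the peptide-amidating enzyme, 0.51), Cck, Nts, Slc32a1 and Scg2. Sst had 871, 1075, 1247 and 2032 at P0 and 530 to 1317 at E17 and E18, so the groups overlapped through the E18 CD-1 male (adjusted p = 0.0153). Npy had 371, 433, 557 and 868 against 283 to 445 (adjusted p = 0.0302). Of the 9, 8 were continued and Pam was unresolved. The count was 5 rises without the P0 array of the CD-1 male.

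Crh, corticotropin-releasing hormone, which drives the stress axis, was the peptide gene that fell. It had 64.2, 57.1, 61.5 and 33.6 at P0 and 74.3, 94.0 and 178 as lowest, median and highest at E17 and E18, with the 2 highest values in CD-1 at E17. The change was -0.80 ± 0.21 (1.74-fold lower, adjusted p = 0.0283), with no called slope or departure. Several defining hypothalamic genes did not pass the test at birth. Oxt had 562, 596, 506 and 473 at P0 against 430 to 537 (0.12 ± 0.09, adjusted p = 0.406), and Avp had 864, 1047, 906 and 1211 against 580 to 1648 (-0.02 ± 0.16, adjusted p = 0.95) after a slope of 0.50 per day. Pmch, Hcrt, Gal, Trh, Pomc and Th changed by -0.53 (Trh) to 0.18 (Gal), with adjusted p from 0.148 to 0.97.

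Transcription factors that pattern the hypothalamus fell in 10 of 44 cases, and 0 rose, with a median of -0.32. Nhlh2, a factor of hypothalamic peptide neurons, had 186, 156, 109 and 80.9 at P0 and 188 to 336 at E17 and E18, a change of -0.85 ± 0.19 (adjusted p = 0.0121). Isl1, of arcuate neurons, fell by 0.52 on the log2 scale, Dlx1 and Dlx5, of GABA neurons, by 0.48 each, and Onecut2, Zfhx4, Nkx2-4, Nkx2-2, Zic1 and Irx5 by 0.38 to 0.67. A second probe set of Isl1 did not pass the test (-0.35, limma adjusted p = 0.114). The slope of these factors over E15 to E18 was downward and called in 24 of 44, and 7 of the 10 were continued. The count of falls was 5 without the P0 array of the CD-1 male.

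Of 33 cell cycle genes 8 were called lower and 0 higher, and all 8 were continued. Mki67, the proliferation antigen, had 92.2, 87.3, 70.9 and 53.3 at P0 and 71.3 to 161 at E17 and E18, a change of -0.52 ± 0.14 (adjusted p = 0.0278) with a departure of 0.04. Top2a, Mcm2, Mcm4, Mcm7, Rrm2, Cdc20 and Cdk4 fell by 0.38 to 0.53. Of their further probe sets 1 of Cdk4 was called, and those of Top2a, Mcm2, Mcm4, Mcm7, Rrm2 and Cdc20 were not. Progenitor genes fell in 6 of 27 cases, namely Sox3, Vim, Sox2, Msi1, Hmga2 and Id4. The list's median was -0.05 in C57Bl/6 and -0.30 in CD-1, and its median summed signal was 20520 at E17 and E18 and 20541 at P0 in C57Bl/6, against 19269 and 16298 in CD-1. The difference between the strains was not tested over the list. In the fit that left out the P0 array of the CD-1 male, 5 cell cycle genes and 1 progenitor gene were called. Among imprinted genes 4 of 23 fell (Dlk1, Mest, Cdkn1c and Sgce) and Impact rose by 0.43, beside 4.82% and 5.13% of all genes.

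Of 24 hypoxia responsive genes 4 fell and 2 rose, beside 4.82% and 5.13% of all genes. Their median summed signal was 16460 at E17 and E18 and 17341 at P0 in C57Bl/6, and 15223 and 13779 in CD-1. Beside Ankrd37 and Vegfa, Kdm3a, a histone demethylase, had 191, 197, 182 and 226 at P0 and 264 to 364 at E17 and E18, a change of -0.63 ± 0.10 (adjusted p = 0.00183) that was continued. Slc2a1, the glucose transporter of the blood-brain barrier, had 548, 540, 292 and 162 against 322 to 753. Its change was -0.49 ± 0.13 (adjusted p = 0.0259), the groups overlapped, and 2 further probe sets did not pass the test. The rises were the glycolytic aldolases Aldoa (0.40) and Aldoc (0.45), of which Aldoc also marks astrocytes. There were 3 falls and 2 rises without the P0 array of the CD-1 male.

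Glucocorticoid responsive genes rose in 7 of 22 cases and fell in 2, beside 5.13% and 4.82% of all genes. The metallothioneins Mt2 and Mt1, which bind zinc and copper, led. Mt2 had 529, 634, 626 and 396 at P0 and 159 to 375 at E17 and E18, a rise of 1.13 ± 0.14 (2.19-fold, adjusted p = 0.000497), continued on a slope of 0.41 per day. Mt1 had 876, 684, 655 and 469 against 256 to 495, a rise of 0.78 ± 0.11 (adjusted p = 0.0016). Pla2g3, Zbtb16, Klf9, Mertk and Cdkn1a rose and Hif3a (-0.69) and Ddit4 (-0.38) fell, while 5 rose and 0 fell without the P0 array of the CD-1 male. No further probe set of Hif3a (0.16, limma adjusted p = 0.59) or Zbtb16 (0.12, limma adjusted p = 0.714) was called. The direct targets Fkbp5 (0.09, adjusted p = 0.59) and Tsc22d3 (-0.24, adjusted p = 0.141) did not pass the test. Of the genes of oxidative stress and metal binding 5 of 22 rose: Mt1, Mt2, Gstm1 (0.74), Gpx3 and Fth1.

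Fuel genes gave few calls. Slc16a1, the monocarboxylate transporter that carries lactate and ketone bodies into brain, had 327, 377, 374 and 255 at P0 and 129, 174 and 245 as lowest, median and highest at E17 and E18. All P0 arrays were higher, and the rise was 0.86 ± 0.13 (1.82-fold, adjusted p = 0.00169), continued on a slope of 0.27 per day. Of the other 19 genes of fatty acid and ketone use Acsl6 rose (0.34) and Cpt2 fell (-0.60), and the list had 1 rise and 0 falls without the P0 array of the CD-1 male. Of 33 oxidative phosphorylation genes 3 rose, by 0.23 to 0.25, beside 5.13% of all genes, and 0 were called by limma without the P0 array of the CD-1 male. Among heat and cold shock genes 2 of 17 fell and 0 rose, beside 4.82% and 5.13% of all genes. Without the P0 array of the CD-1 male 2 rose and 2 fell, and with quantile normalization 1 rose and 4 fell. Cirbp, which is induced by cooling, did not pass the test (0.37 ± 0.12, adjusted p = 0.0562). Of 16 clock genes Nr1d2 (0.73) and Tef (0.41) rose, beside 5.13% of all genes. Of 13 thyroid hormone genes, Crym, Klf9, Nrgn and Slco1c1 rose and Shh fell, beside 5.13% and 4.82% of all genes. The rises were 2 without the P0 array of the CD-1 male. The median of that list was -0.17 in C57Bl/6 and 0.28 in CD-1, and 2 further Klf9 probe sets were not called.

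Of 20 immediate early genes 3 rose and 1 fell, beside 5.13% and 4.82% of all genes. After Fos and Egr1, Nr4a1, an orphan nuclear receptor, had 149, 125, 150 and 166 at P0 and 67.0 to 129 at E17 and E18, a rise of 0.47 ± 0.13 (adjusted p = 0.0365). Nr4a2 fell by 0.42 on the log2 scale (adjusted p = 0.0377). The list's median was 0.095, and without the P0 array of the CD-1 male 2 rose and 0 fell.

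Markers of neighbouring tissue were counted in the same way. Cerebral cortex genes rose in 4 of 8 cases (Neurod2, Mef2c, Bcl11b and Neurod6), or in 2 without the P0 array of the CD-1 male. Their summed signal was 1584 to 2798 at P0 and 1141 to 2079 at E17 and E18, and the P0 values were higher within each strain. Slc17a7, the transporter of cortical excitatory neurons, lay below the filter on dim genes, at 46.2 to 87.8 at P0 and 27.3 to 45.9 at E17 and E18. Of the 8 genes tested, 5 changed upward and 3 downward, the lowest by -0.34, and 0 falls were called. Neurod2 is itself a member of this list and Zbtb18 is not. The part of cortex in the dissected tissue was not tested. None of 8 striatum and septum genes was called by limma, and their summed signal was 1814 to 2361 at P0 against 1620 to 2160. Among thalamus genes Zic1 and Zic4 fell and 0 of 15 rose, beside 4.82% and 5.13% of all genes. Without the P0 array of the CD-1 male 0 fell and 1 rose. Mesenchyme and meninges genes had a median of 0.59 with 2 of 20 called (Pdgfra and Mgp) or 1 without the P0 array of the CD-1 male. The median was 0.91 in CD-1 and 0.19 in C57Bl/6. Their summed signal was 3425 to 4903 at P0 and 1635 to 4926 at E17 and E18. The astrocyte and vessel genes were not tested against it. Of the lists not yet given, axon growth and guidance had 3 rises and 4 falls of 48 (Sox11, of young neurons, by -0.94), cholesterol synthesis and transport 2 and 2 of 24, blood vessels 2 and 1 of 28, hormone receptors 3 and 0 of 34, perineuronal matrix 3 and 0 of 18, proneural genes 3 and 5 of 21 and ependymal genes 1 and 0 of 12, beside 5.13% and 4.82% of all genes. Without the P0 array of the CD-1 male these counts were 1 and 2 for axon genes, 1 and 1 for cholesterol, 2 and 1 for vessels, 2 and 0 for hormone receptors, 2 and 0 for the matrix, 1 and 4 for proneural and 0 and 0 for ependymal genes. No choroid plexus or pituitary gene was called among the 5 and 2 tested, and Prl and Gh were at 32.9 or below in the P0 arrays.

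**Figure D3:**
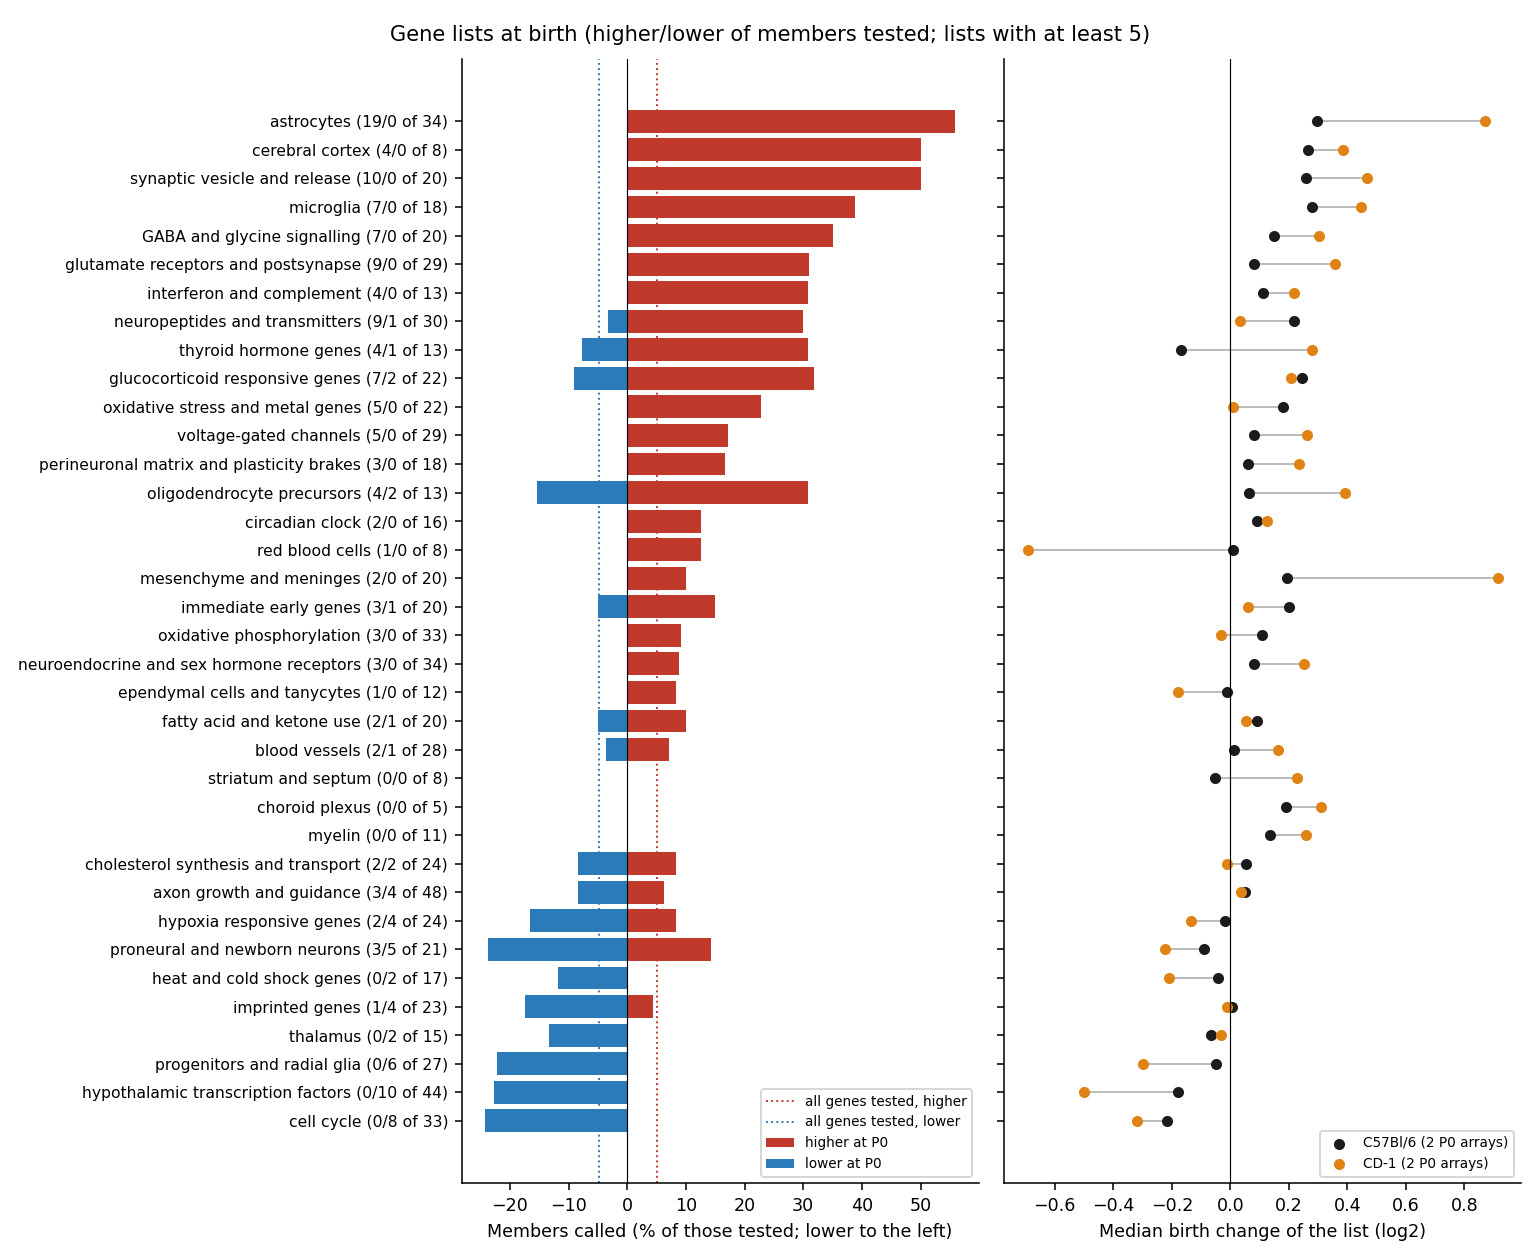
Left, the share of tested members of each list called higher (red, right) or lower (blue, left) at P0, with dotted lines at the shares over all genes tested, 5.13% and 4.82%. Right, the median birth change of each list in C57Bl/6 (black) and CD-1 (orange): the astrocyte list has medians of 0.30 and 0.87 and the hypothalamic transcription factors -0.18 and -0.50. The astrocyte list is drawn with Agt and Itih3, which entered the test through P0 alone.

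The birth change differed between the strains for 103 genes (0.848%) by the strain interaction. It was more positive in CD-1 for 31 and more negative for 72, and in 64 the strains changed in opposite directions. With 2 P0 arrays a strain, this count was unstable: it was 1 without the P0 array of the C57Bl/6 female, 1087 without that of the CD-1 female, and 64 with no filter on dim genes. The 1 gene called without the P0 array of the C57Bl/6 female was Fos, and all other strain differences named below lost their call there. Of the 103, 23 were called in the birth change and 2, Egr1 and Tuba4a, were abrupt.

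Fos, the immediate early gene that forms the AP-1 factor, had the smallest adjusted p of the difference. In C57Bl/6 it had 678 and 677 at P0 and 61.8 to 90.3 at E17 and E18. In CD-1 it had 88.6 and 114 at P0 and 66.0 to 93.1 before. The C57Bl/6 arrays of both sexes were thus far above every other array, and the CD-1 arrays overlapped the fetal range. The rise was 7.38-fold in C57Bl/6 and 1.26-fold in CD-1, a difference of -2.55 ± 0.23 on the log2 scale (CD-1 minus C57Bl/6, adjusted p = 0.000192), and it was called when any 1 of the 4 P0 arrays was left out. The pooled rise of 1.61 ± 0.34 (adjusted p = 0.00985) was not called in CD-1 alone, against E18 alone or in the fit of all 48 arrays, with adjusted p up to 0.28. By the slope of 0.36 per day Fos counts as continued, with a departure of 1.05 (adjusted p = 0.261).

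Egr1 went with Fos, with a rise of 4.27-fold in C57Bl/6 and 1.87-fold in CD-1 (difference -1.19 ± 0.20, adjusted p = 0.0187). Sgk1, a kinase induced by glucocorticoids and osmotic stress, had 205 and 230.2 at P0 in C57Bl/6 against 139 to 162, and 147 and 119 in CD-1 against 173 to 222. It was higher at birth in the one strain and lower in the other, without overlap in either (difference -0.96 ± 0.18, adjusted p = 0.0261), and its pooled change was -0.01. The differences of Egr1 and Sgk1 were each called in 1 of the 4 fits that left out a P0 array, with adjusted p up to 0.11 and 0.139.

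Tmem87a, a membrane protein of the Golgi, had 9.78 to 51.6 at E17 and E18 in C57Bl/6 and 204 and 262 at P0, where CD-1 had 235 to 325 before birth and 270 and 298 at P0. The C57Bl/6 arrays of P0 thus had the level of CD-1 (difference -2.66 ± 0.42, adjusted p = 0.014). Tent5c and Alas2, both of red blood cell precursors, were low in the CD-1 arrays of P0. Tent5c had 156 and 171 at P0 in C57Bl/6 but 5.75 and 5.22 in CD-1, where it had 83.1 to 177 before birth (difference -2.77 ± 0.41, adjusted p = 0.0113). Alas2, the heme enzyme of red cells, had 315 and 328 in C57Bl/6 and 57.3 and 18.3 in CD-1, against 177 to 503 before birth in CD-1 (difference -2.90 ± 0.60, adjusted p = 0.0406). The red blood cell list of 8 tested genes summed to 745 and 898 in the CD-1 arrays of P0, and to 963 to 1453 in the fetal arrays of both strains. Its part in the 2 genes was not tested.

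Dlk1, Gpc2 and Vim fell more in CD-1. Dlk1, an imprinted Notch ligand, had 814 and 877 at P0 in C57Bl/6 against 893 to 1194, and 857 and 611 in CD-1 against 1805 to 2766. The strains differed before birth and were close at P0 (difference -1.25 ± 0.24, adjusted p = 0.0279). Gpc2, a proteoglycan of growing axons, fell to 0.685 of its fetal level in C57Bl/6 and to 0.328 in CD-1 (adjusted p = 0.0459). Vim, the filament of radial glia, fell to 0.922 and 0.490 (adjusted p = 0.037).

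**Figure D4:**
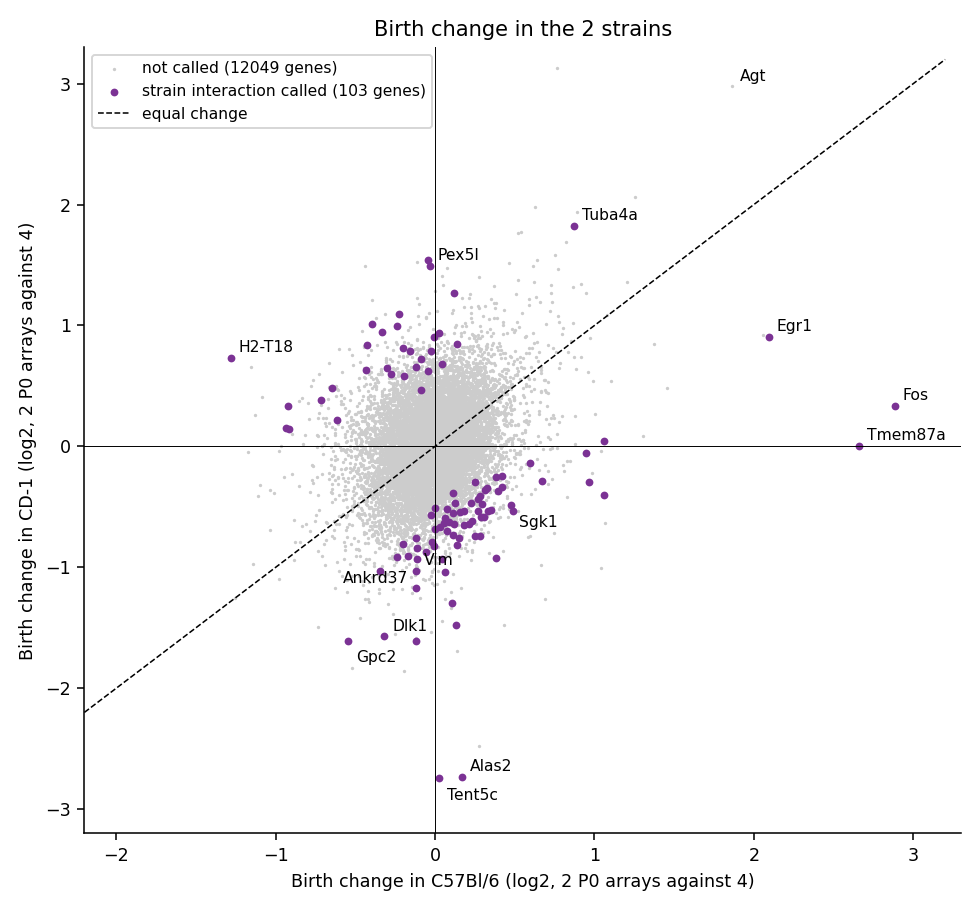
Birth change in C57Bl/6 (horizontal) and in CD-1 (vertical) for 12152 genes, in log2, each from 2 P0 and 4 fetal arrays, with the 103 genes called in the strain interaction in purple. Fos (2.88 and 0.33) and Tmem87a (2.66 and 0.01) lie far right of the dashed line of equal change, and Tent5c (0.03 and -2.75) and Alas2 (0.17 and -2.73) far below it.

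The birth change did not differ between females and males for any gene at the threshold: 0 genes were called by limma in the sex interaction (0.000%), with 643 (5.29%) at an unadjusted p under 0.05. With 2 P0 arrays of each sex, this does not show that the sexes changed alike, and leaving out 1 P0 array gave 0 to 129 calls.

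Beyond birth, levels were set beside those at P21, without a test. The 3′ to 5′ ratio of beta-actin was 3.77 and 4.22 in the C57Bl/6 arrays of P21 and 1.11 and 1.21 in the CD-1 arrays, against 1.10 to 1.35 at P0. That of Gapdh was 1.72 and 2.42 in the same C57Bl/6 arrays and at most 0.840 at P0, and the part of these ratios in the levels was not tested. Of the 14 abrupt rises 5 had gone further in the same direction by P21, 2 lay between, and 7 were back at or past the E17 and E18 level. Agt reached 1778 ± 575 (SD, n = 4), Egr1 1047 ± 118 and Tuba4a 5145 ± 1096. Neurod2 was back at 70.4 ± 41.8, Zbtb18 at 509 ± 38.1, Nell2 at 264 ± 19.7 and H3f3b at 49.9 ± 15.7, so these were high at P0 relative to both sides. Of the 17 abrupt falls 11 lay between: Ankrd37 was at 73.5 ± 9.28 and Tank at 60.5 ± 5.38, close to their P0 means of 66.1 and 56.7. Of the 548 continued genes 369 had moved on past their P0 level, as Aqp4 (1094 ± 304) and Mest (188 ± 33.2) did.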

How the data were processed

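Values are signal intensity on a linear scale, as deposited by the authors. GCOS 1.4 and MAS5 are named in the submitters' processing notes; further steps are not given in the sources used here. The tissue was placed in an RNA preservative and RNA amplified in 1 round from an oligo-dT primer, per the labels' protocols. Of 45101 probe sets, 34945 carry 1 gene symbol in the platform annotation, 932 several, and 9160 none listed; symbols were updated through RefSeq. Genes above the array median in at least 4 of the 20 arrays of E15 to P0 were tested, with the probe set of highest mean (12152 genes). Further probe sets were fitted as well, and the text gives them for only a part of the genes named.

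Models were fitted with limma 3.58.1 in R 4.3.3 (lmFit, eBayes with trend) on log2(signal + 16) with Benjamini-Hochberg adjustment: P0 against E17 and E18 with strain, a line over E15 to E18 with an indicator for P0, and strain and sex interactions. All tests are two-sided. On simulated data of 12152 genes, the birth fit recovered 74.6% of 1.5-fold and 98% of 2-fold changes, with 4.05% of calls wrong. The departure fit recovered 50.2% and 92.5% of them, with 4.72% wrong. These rates, from 3 rounds with 200 changed genes each, describe the simulated data alone. Whether they hold for the measured arrays was not tested. Of 939 members of 37 lists, 723 were tested. Named genes are the largest rises and falls with the same sign in all 4 series, the largest abrupt and continued ones, the 3 largest of each list, key hypothalamic genes and the largest interactions; other list members, the remaining abrupt genes and those with a departure alone, and the interactions of Egr1, Dlk1, Gpc2, Vim and Sgk1 were named after their values were seen. Members, lists and tests were chosen with earlier results of these data known. Alternatives covered pseudocount, filter, scaling, covariates, array weights, embryonic group, day of P0, span of the line, each strain, and each array left out.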

Additional observations from a re-analysis of the deposited data

Results flagged for a closer look

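Among 340 groups of 4 or 8 arrays examined for 170 named genes, a single array stood far from the rest of its group in 13. Chance gives about 1 in 20 groups, and the total of 13 is no more than that. That rate covers the total alone, and the spread of the flags over arrays was not tested. Most flags at P0 fell on the CD-1 male, the array that also stood apart in correlation. At P0 the CD-1 male stood apart for Zbtb18 (1294, others 861 to 908), Gabrg1 (258, others 482 to 493), Laptm5 (155, others 185 to 188), Isl1 (503, others 739 to 775), Nkx2-4 (60.3, others 142 to 152) and Cirbp (1067, others 1320.0 to 1361). At P0 the C57Bl/6 male stood apart for Klhl28 (160, others 179 to 181) and the CD-1 female for Prrg1 (50.7, others 80.7 to 83.5). Among the E17 and E18 arrays, the E17 C57Bl/6 female stood apart for Nell2 (339, others 251 to 277) and Fcer1g (98.6, others 27.2 to 52.4), the E17 CD-1 male for Klf9 (83.3, others 113 to 141) the E17 CD-1 male also for Sox11 (2066, others 3364 to 4832) and the E18 C57Bl/6 male for Ddit4 (485, others 550 to 611).

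The birth change differed between the strains for 103 genes by limma's interaction term. Only Fos was called when the P0 array of the C57Bl/6 female was left out. Among genes named here, the CD-1 minus C57Bl/6 difference on the log2 scale was -2.55 for Fos, -1.19 for Egr1, 0.95 for Tuba4a, -0.91 for Vim, -0.82 for Msi1, -1.25 for Dlk1, -0.96 for Sgk1, -2.66 for Tmem87a, -2.77 for Tent5c, -2.90 for Alas2 and -1.06 for Gpc2.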

How the results depend on the processing

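No cause of a shift given here was tested. Genes called at birth numbered 251 in C57Bl/6 alone (132 higher, 119 lower), 70 against E18 alone (42 and 28, with 19 list members in place of 163) and 38 in a fit of all 48 arrays (10 and 28). With array weights 384 genes were lower, 65 departed and 47 were abrupt. Departures and abrupt genes numbered 9 and 9 in C57Bl/6 alone, 56 and 51 in CD-1 alone, 401 and 389 with P0 at day 18, and 0 and 0 with the line over E16 to E18, where fewer arrays were fitted, and 71 genes departed with P0 at day 20. These counts cover any gene called in that fit. Of the 31 abrupt genes, 2 departures were called in C57Bl/6 alone and 9 in CD-1 alone. Called slopes fell to 1246 in C57Bl/6, 1519 in CD-1 and 352 over E16 to E18, and continued genes to 78, 245 and 136. The strain interaction had 64 calls with no filter on low values, and the sex interaction 1 with pseudocount 1. Leaving out 1 array gave 663 to 1309 birth calls (345 to 636 higher, 317 to 673 lower), 19 to 50 departures, 14 to 42 abrupt genes, 311 to 572 continued genes, 2141 to 2875 slopes, 1 to 1087 strain and 0 to 129 sex interactions, and 101 list members without the P0 CD-1 male.

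Signs turned for Tent5c at birth (0.025), the slopes of Alas2 (-0.39) and Tent5c (-0.33) in C57Bl/6 alone, the slope of Sparc (-0.25) in CD-1 alone, the departures of Apoe (0.70) and Mest (-0.49) at day 18, the slopes of Neurod2 (0.0027), Nrcam (-0.0071) and Slc32a1 (-0.011) over E16 to E18, and the strain interaction of Klhl1 (-0.86) without the P0 CD-1 female, which was 0.98 without the CD-1 male. The labels carry no replicate numbers; with strain and sex series as a block 890 genes were called at birth and 22 of the 31 abrupt genes departed. Precision is limited by the number of arrays.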
